A study of Chelon labrosus with 24 samples.

Results

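The genes described here are ki-Ras, cyclin_G1 and PCD8, spelled as the array design spells them. They were chosen by their names on the array, ignoring case and punctuation, with the log2 differences and adjusted p-values of the same site and sampling comparisons already known. This gave 12 of the 638 probes, 4 for each of the 3 genes, among 159 genes in all. RNA came from the livers of immature thicklip grey mullet (Chelon labrosus), a coastal fish, held in cages in the inner or the outer part of Pasaia harbour and taken at a first or a second sampling, with 6 samples in each of the 4 groups. The first sampling is day 5 in the sample labels and 3 days of exposure in the series text, and the second is day 21 in the labels and 15 days in the text. The labels name no genotype and no added agent, and an uncaged group was not analysed here. Each site is known only from its own caged fish, so site and cage cannot be told apart. Because the samplings lay in different rows of every slide, sampling and array row cannot be told apart either. The labels give every sample a number but not the animal behind it. Here a sample is written as a fish, and a p-value covers only the variation among the samples at hand.

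Ras proteins are small GTPases that pass growth factor signals from receptors at the cell membrane to kinase cascades, and in mammals the ki-Ras gene is a well known proto-oncogene. Cyclin G1 is a cyclin family protein whose gene is a target of the tumour suppressor p53 in mammals, and it takes part in the control of p53 and of cell division after DNA damage. PCD8, read as programmed cell death 8, is an older name of the human gene for apoptosis-inducing factor, a mitochondrial flavoprotein needed for the respiratory chain that can move to the nucleus when cells die. Besides the probe sequences, which were not matched to any reference, the scanner files carry only the 4 letters and digits of that name. The reading is therefore not settled here. In the liver these genes belong to growth signalling, the response to DNA damage, and mitochondrial upkeep and cell death.

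The probe sequences are shown because they decide how far the 4 probes of a gene are separate measurements. All probes have 55 bases. For ki-Ras and PCD8 each probe starts 1 base further along than the one before, so the 4 probes cover a stretch of 58 bases and share 52 of them. For cyclin_G1 the steps are of 15 bases, the stretch has 100 bases, and all 4 probes share 10. Capitals below mark the bases that all 4 probes of a gene hold.
ki-Ras, all 4 probes joined: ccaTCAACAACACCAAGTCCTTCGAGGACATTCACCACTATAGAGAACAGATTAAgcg
cyclin_G1, all 4 probes joined: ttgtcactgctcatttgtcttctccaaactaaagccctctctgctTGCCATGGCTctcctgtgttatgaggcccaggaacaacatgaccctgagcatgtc
PCD8, all 4 probes joined: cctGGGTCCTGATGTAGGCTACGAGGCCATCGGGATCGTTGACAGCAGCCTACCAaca
PCD8, brightest probe: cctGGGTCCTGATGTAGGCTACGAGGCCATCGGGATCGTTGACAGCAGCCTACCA
PCD8, next probe: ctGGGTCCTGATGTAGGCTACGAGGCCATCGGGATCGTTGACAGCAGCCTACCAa
The first 3 sequences hold 44.8%, 50% and 58.6% G or C. The last 2 differ by 1 base at each end and are shown because these probes gave different sizes of change, described below. A gene's probes share a target and are not replicates of each other. The gene is therefore represented by its brightest probe, with the range over all 4.

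Levels are the log2 signal of a probe minus the 75th percentile of its array, so they follow changes within a gene and do not rank genes against each other. All 12 probes were well above background on all 24 arrays, and every one lay at least 2.31 log2 units above the dimmest probe detected on the same array. Between 371 and 484 probes were well above background per array, no spot was saturated, and a group difference had a median SE of 0.25 over the 476 tested probes. The number of arrays limits the precision. Differences come from 1 limma model over the 24 arrays and count as called where p, adjusted by Benjamini-Hochberg over the 476 tested probes, was under 0.05. Since those differences were known when the genes were chosen, the values and p-values of the 3 genes describe that fit and support nothing beyond it. The 8 hepatocyte marker genes on the array were well above background in every group, with averaged levels between 2.63 and 4.47. In bulk liver RNA, fewer cells of a type and less RNA per cell cannot be told apart.

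**Figure D1:**
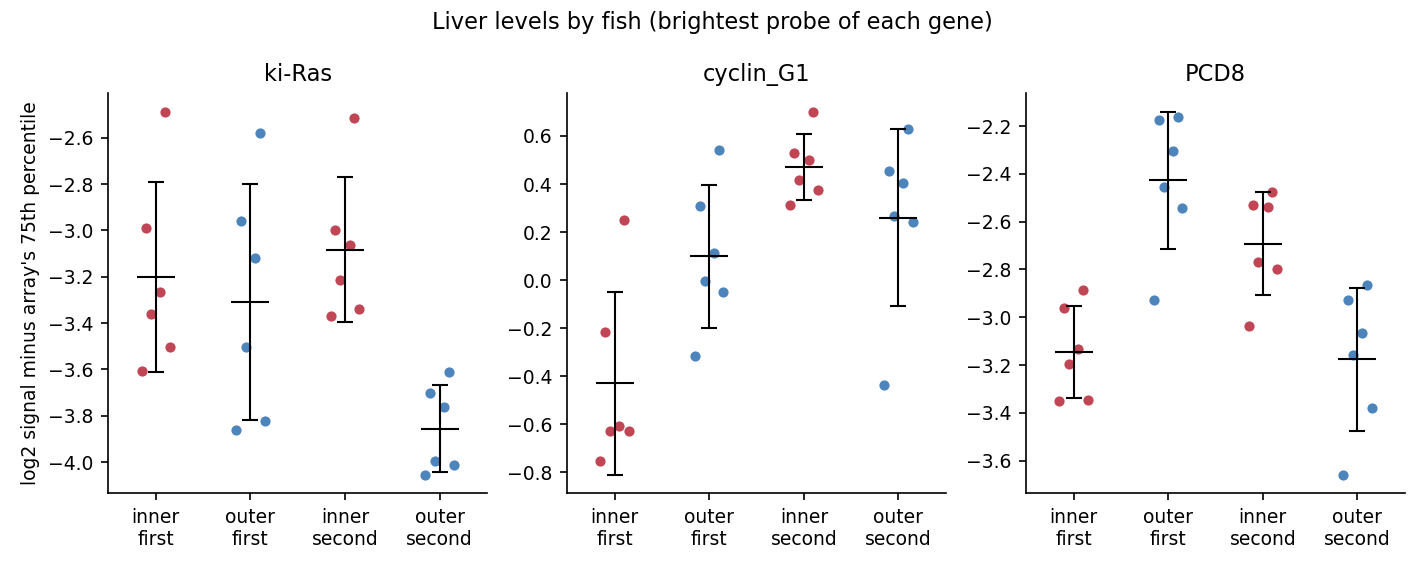
Level of each gene's brightest probe in every fish (log2 signal minus the array's 75th percentile, each gene on its own axis), by site and sampling, inner harbour in red and outer in blue. Points are fish, the long bar is the mean and the whiskers are 1 SD (n = 6). The lowest mean of ki-Ras is that of the second outer group (-3.86) and the lowest of cyclin_G1 that of the first inner group (-0.43), and PCD8 is low in both (-3.18 and -3.15).

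ki-Ras, the signalling GTPase, was lower in the outer than in the inner harbour at the second sampling and showed no called difference at the first. At the second sampling its level ran from -3.37 through a median of -3.14 to -2.52 in the inner harbour (mean -3.08 ± 0.31, SD, n = 6). In the outer harbour it ran from -4.06 through -3.88 to -3.61 (mean -3.86 ± 0.19, SD, n = 6). The lowest of the 6 inner fish was above the highest of the 6 outer fish. The inner harbour was 1.71-fold higher (log2 difference 0.77 ± 0.22, SE, limma adjusted p = 0.0203). The other 3 probes gave differences up to 0.83, and all 4 were called without overlap of the groups. All 4 were also called with the 75th percentile of detected probes and with spike-ins. Of all tested probes 12.0% and 18.5% were called there, none lower in the inner harbour. With spike-ins the median difference of all tested probes was 0.41. None of the 4 ki-Ras probes was called with the array median, normexp, quantile normalization or the deposited values (8.40%, 9.03%, 5.25% and 3.78% of all). As reported, 12.8% of all tested probes were called in this comparison, every one higher in the inner harbour, and 7.77% had groups that did not overlap.

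At the first sampling ki-Ras was spread widely within both sites. The inner fish ran from -3.61 through -3.31 to -2.49 and the outer fish from -3.86 through -3.31 to -2.58. The ranges lay over each other, and the difference was 0.11 ± 0.22 with an interval from -0.35 to 0.56 (95%, limma adjusted p = 0.805). Between samplings ki-Ras differed by 0.12 ± 0.22 in the inner harbour (adjusted p = 0.814). In the outer harbour the second sampling was lower by 0.55 on the log2 scale, from -3.31 to -3.86 in the mean, and this was not called (SE 0.22, adjusted p = 0.0959 by limma). Over the 24 fits with an array left out this difference ran from -0.66 to -0.40, with limma adjusted p up to 0.215. It was called in 1 of them, without fish 4 of the first outer group (-0.66, limma adjusted p = 0.0472). From the highest group mean to the lowest the order was inner second, inner first, outer first and outer second. The first 3 lay within 0.12 of their neighbours, less than the SD of any of these groups, and the step down to the last group was 0.55.

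cyclin_G1, the p53-responsive cyclin of mammals, was higher in inner harbour fish at the second than at the first sampling. The inner fish of the first sampling ran from -0.75 through a median of -0.62 to 0.25 (mean -0.43 ± 0.38, SD, n = 6), with fish 4 at the top. At the second they ran from 0.31 through 0.46 to 0.70 (mean 0.47 ± 0.14, SD, n = 6). Every fish of the second sampling lay above every fish of the first. The second sampling was 1.87-fold higher (log2 difference 0.90 ± 0.19, SE, limma adjusted p = 0.000877), and all 4 probes were called, with differences from 0.89 to 0.91 and no overlap. In this comparison 25.4% of all tested probes were called and 17.9% were called upward, and 11.6% had groups that did not overlap.

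In the outer harbour cyclin_G1 ran from -0.32 through 0.05 to 0.54 at the first sampling (mean 0.10 ± 0.30, SD, n = 6). At the second it ran from -0.44 through 0.34 to 0.63 (mean 0.26 ± 0.37, SD, n = 6). These ranges overlapped and the difference was 0.16 ± 0.19 (limma adjusted p = 0.599). Fish 2 of the second outer group was at -0.44, while the next lowest fish of that group was at 0.24. Between sites at the first sampling the inner mean was lower by 0.53 on the log2 scale, with adjusted p-values of the 4 probes from 0.0553 to 0.0558, none of them called. Over the 24 fits with an array left out the difference ran from -0.66 to -0.44, with limma adjusted p up to 0.142. It was called in 3 of them. Leaving out fish 4 of the inner group moved it to -0.66 (limma adjusted p = 0.0209). Without fish 1 of the outer group it was -0.61 (adjusted p = 0.0457, limma), and without fish 2 of the second outer group, which enters only through the shared spread, the adjusted p was 0.0398. At the second sampling the sites differed by 0.21 ± 0.19, with an interval from -0.18 to 0.60 (95%, limma adjusted p = 0.642). The order of the group means was inner second, outer second, outer first and inner first, with steps of 0.21, 0.16 and 0.53. The groups next to each other in that order overlapped, and none of these steps was called.

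PCD8, read as apoptosis-inducing factor, was the gene of the 3 with calls in all 5 comparisons, and its site difference had opposite signs at the samplings. At the first sampling the inner fish ran from -3.35 through a median of -3.16 to -2.88 (mean -3.15 ± 0.19, SD, n = 6) and the outer fish from -2.93 through -2.38 to -2.16 (mean -2.43 ± 0.29, SD, n = 6). Outer fish 4, at -2.93, was the only outer fish inside the range of the inner group. The inner harbour was 1.65-fold lower (log2 difference -0.72 ± 0.16, SE, limma adjusted p = 0.00874). All 4 probes were called, with differences from -0.72 to -0.61, where 14.5% of all tested probes were called and 9.24% were called downward. The groups overlapped on all 4 probes, in a comparison where 2.52% of all tested probes had groups that did not overlap. With the array median, detected probes, the deposited values and spike-ins none of the 4 probes was called. Of all tested probes 7.35%, 7.77%, 7.56% and 3.99% were called with these.

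At the second sampling PCD8 was higher in the inner harbour. The inner fish ran from -3.04 through -2.65 to -2.48 (mean -2.69 ± 0.22, SD, n = 6) and the outer fish from -3.66 through -3.11 to -2.87 (mean -3.18 ± 0.30, SD, n = 6). The groups overlapped on this probe, and the inner harbour was 1.40-fold higher (log2 difference 0.49 ± 0.16, SE, limma adjusted p = 0.0494). This call was lost under each of the 6 other scalings of the arrays (limma adjusted p from 0.0670 to 0.947), with no filter on dim probes (adjusted p = 0.0840) and with only the compared groups fitted (adjusted p = 0.0781). The other 3 probes gave larger differences, up to 0.80, without overlap and with limma adjusted p-values down to 0.00121. Of all tested probes 12.8% were called in this comparison, and 7.77% had groups that did not overlap. None of the 4 probes was called with the array median, quantile normalization or the deposited values (limma adjusted p from 0.0549). Of all tested probes 8.40%, 5.25% and 3.78% were called with these. With normexp, detected probes and spike-ins 3 of the 4 were called each time, beside 9.03%, 12.0% and 18.5% of all. With single arrays left out in turn, the brightest probe kept its call in 6 of 24 fits (adjusted p up to 0.145, without fish 6 of the second outer group), and each of the other 3 in 24 of 24.

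Between samplings PCD8 rose in the inner and fell in the outer harbour. The inner rise was 1.37-fold (log2 difference 0.45 ± 0.16, SE, limma adjusted p = 0.0405), with 4 of 4 probes called, up to 0.55, and overlapping groups, where 25.4% of all tested probes were called. On the brightest probe this call was lost under each of the 6 other scalings (limma adjusted p from 0.0619 to 0.992) and with no filter on dim probes (adjusted p = 0.0640). With normexp 3 of the 4 probes were called, beside 19.1% of all tested probes. With the other 5 scalings none of the 4 was, where the share of all ran from 16.6% to 24.4%. The brightest probe kept this call in 15 of 24 fits with an array left out (adjusted p up to 0.0880, without fish 3 of the first inner group). In the outer harbour the second sampling was 1.68-fold lower (log2 difference -0.75 ± 0.16, SE, limma adjusted p = 0.00215). All 4 probes were called there, down to -0.91, and on 3 of the 4 the groups did not overlap. In that comparison 16.6% of all tested probes were called, 13.4% downward, and 10.9% had groups that did not overlap. From high to low the group means were outer first, inner second, inner first and outer second. On the brightest probe the first step, 0.26, lay between the SDs of its 2 groups (0.29 in outer first, 0.22 in inner second). The second step of 0.45 was called, and the last step was 0.03. The mean of the other 3 probes was -2.97, -3.06, -3.61 and -3.85 in the same order of groups.

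**Figure D2:**
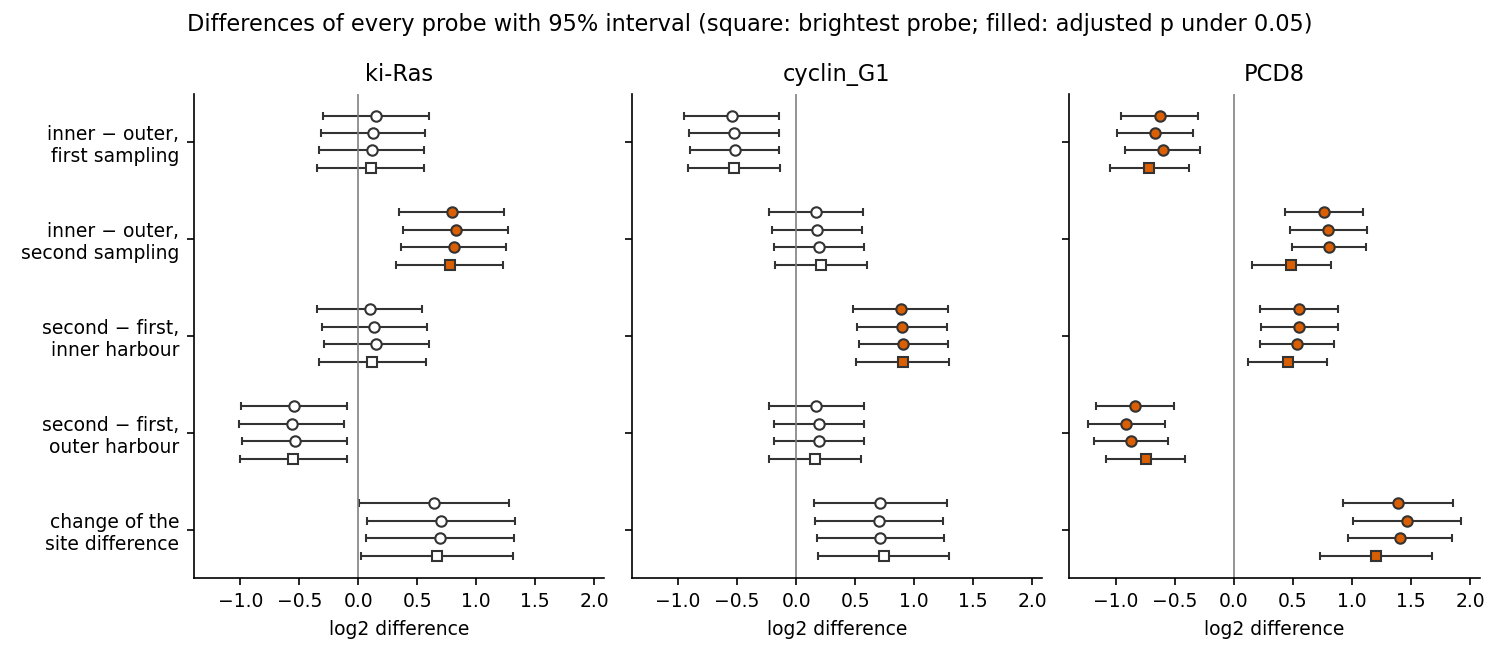
Differences of all 4 probes of each gene in the 5 comparisons (log2 scale), with 95% intervals from the limma fit. Squares are the brightest probes, and filled symbols have an adjusted p under 0.05. The 4 probes of ki-Ras and of cyclin_G1 lie on top of each other, while the brightest PCD8 probe sits apart from the other 3 at the second sampling (0.49 against up to 0.80).

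The brightest PCD8 probe moved apart from its neighbours from fish to fish. Its level minus the mean of the other 3 had an SD of 0.26 over the 24 arrays and a range of 0.99. For each of the ki-Ras and cyclin_G1 probes the same SD lay between 0.024 and 0.048. This excess averaged 0.46 in inner and 0.55 in outer fish at the first sampling and 0.37 in inner and 0.67 in outer fish at the second, with SDs of 0.23 to 0.26 (n = 6 each). It was largest in the outer harbour at the second sampling, where the brightest probe showed the smaller fall. Its cause was not tested.

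Compared with the brightest probe, the mean of the 3 dimmer PCD8 probes separated the sites more widely at the second sampling but not at the first. At the first sampling it ran from -4.04 through -3.64 to -3.04 in the inner and from -3.15 through -2.96 to -2.81 in the outer harbour. At the second it ran from -3.33 through -3.06 to -2.64 in the inner and from -4.07 through -3.85 to -3.63 in the outer harbour. At the second sampling the sites did not overlap on this mean, and at the first 1 inner fish, at -3.04, lay within the outer range. With all 4 probes averaged, the site difference was -0.66 at the first sampling and 0.71 at the second (limma adjusted p = 0.00503 and 0.00254).

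**Figure D3:**
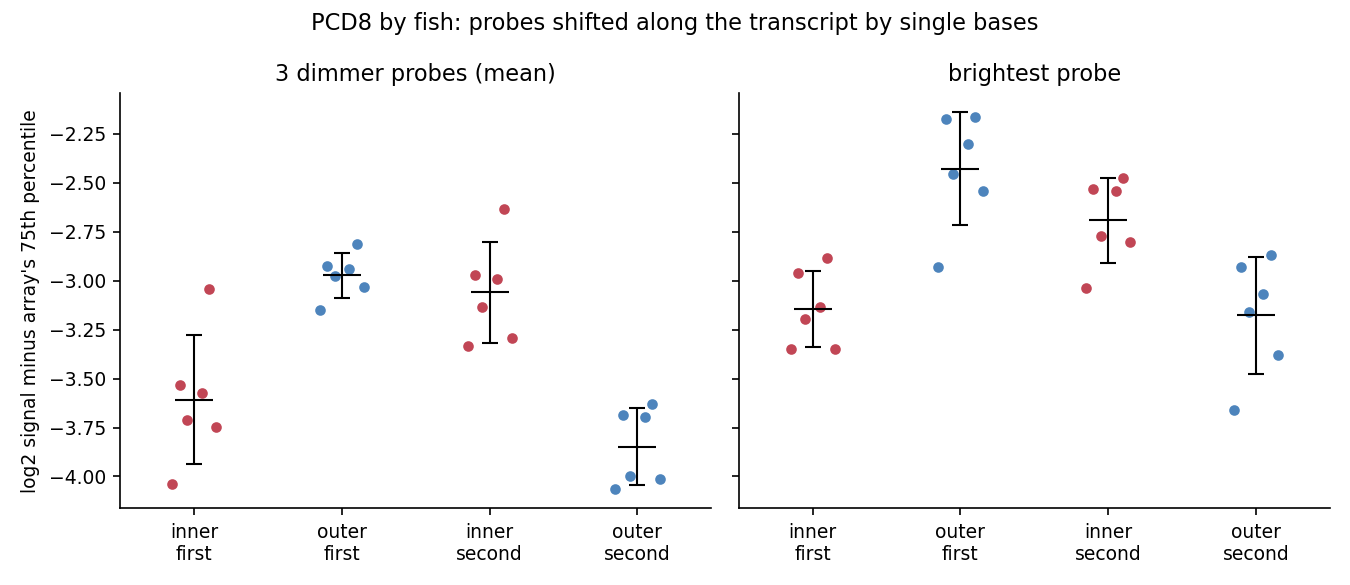
PCD8 level by fish (log2 signal minus the array's 75th percentile) for the mean of the 3 dimmer probes on the left and for the brightest probe on the right, inner harbour in red and outer in blue. Long bars are means and whiskers 1 SD (n = 6). The outer harbour at the second sampling has a mean of -3.85 on the left and -3.18 on the right, and lies clear of the second inner group on the left only.

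The site difference of PCD8 changed by 1.20 ± 0.23 between the samplings (SE, limma adjusted p = 0.00162), with 4 of 4 probes called and values up to 1.47. Over all tested probes 12.2% were called for this change, 11.1% upward. On the brightest probe the change was not called with the array median (0.93, limma adjusted p = 0.112), quantile normalization (0.62, adjusted p = 0.204) or the deposited values (0.53, adjusted p = 0.354). It was called on 4 of 4 probes with normexp, detected probes and spike-ins, where 10.1%, 5.67% and 11.8% of all tested probes were called. With the array median 3 of 4 probes were called (6.30% of all), and none with quantile normalization or the deposited values (2.94% and 2.73%). ki-Ras and cyclin_G1 had changes of 0.67 ± 0.31 and 0.74 ± 0.27 that were not called (limma adjusted p = 0.144 and 0.0736). Without fish 4 of the first inner group the change of cyclin_G1 was 0.88 (adjusted p = 0.0209), and without fish 1 of the first outer group 0.82 (adjusted p = 0.0481, limma). It was called in only these 2 of the 24 fits with an array left out. Across the 24 it ran from 0.60 to 0.88 (limma adjusted p up to 0.117). The comparisons share groups, so the values of a gene in them are not independent.

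Within slides, each of which held 2 arrays of every group, PCD8 kept the sign of all 5 comparisons on each of the 3 slides. Its brightest probe differed between sites at the first sampling by -0.96, -0.38 and -0.82 and at the second by 0.14, 0.46 and 0.85. The rise of cyclin_G1 in the inner harbour was 0.86, 0.54 and 1.31 on the 3 slides. ki-Ras differed between sites at the second sampling by 0.30, 1.28 and 0.74. With slide as a block the calls of the 12 probes numbered 4, 8, 8, 4 and 4 in the 5 comparisons, as without it, where 13.2%, 14.3%, 26.7%, 19.1% and 13.4% of all tested probes were called. ki-Ras turned its sign on slide 3 for site at the first sampling (-0.15) and on slides 1 and 3 for sampling in the inner harbour (-0.054 and -0.22). cyclin_G1 did so on slide 1 for sampling in the outer harbour (-0.093). These values are of the brightest probes. For site at the second sampling the 4 cyclin_G1 probes ran from -0.062 to 0.0050 on slide 2, with the brightest at 0.0050. None of these differences was called over all 24 arrays.

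Differences between the genes on the same array are not changed by subtracting a constant from that array, such as a percentile, a median or the spike-in level. ki-Ras minus PCD8 was higher in the inner than in the outer harbour at the first sampling by 0.82 ± 0.28 (SE, n = 6 and 6), with overlapping groups. At the second sampling this difference between sites was 0.29 ± 0.20. cyclin_G1 minus PCD8 was higher at the second than at the first sampling by 0.91 ± 0.29 in the outer and by 0.45 ± 0.17 in the inner harbour. These values compare changes, not the abundance of the genes, and no test was made on them.

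The scale of the arrays decided several of the calls. Besides the 75th percentile, 6 other scalings were run, and across the 7 the median difference of all 476 probes ran from -0.10 to 0.16 for site at the first sampling and from -0.04 to 0.41 at the second. For sampling it ran from -0.17 to 0.14 in the inner and from -0.49 to 0.16 in the outer harbour, and for the change of the site difference from -0.01 to 0.60. Against that median, the brightest PCD8 probe lay between -0.63 and -0.58 for site at the first sampling and between -0.70 and -0.52 for sampling in the outer harbour. cyclin_G1 lay 0.75 to 0.94 above it for sampling in the inner harbour, and ki-Ras 0.32 to 0.67 above it for site at the second sampling. The site difference of the brightest PCD8 probe at the second sampling turned its sign relative to the median, from -0.16 to 0.38. Before the median was taken off, that difference varied over the 4 PCD8 probes. It ran from -0.051 to 0.29 with quantile normalization and from -0.13 to 0.32 with the deposited values. The 75th percentile of all or of detected probes, the array median and spike-ins each subtract a constant per array. Their values against the median of all probes are therefore the same by arithmetic. Only normexp, quantile normalization and the deposited values could differ.

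The call of ki-Ras between sites at the second sampling was lost with the array median (0.63, adjusted p = 0.0690), normexp background (0.61, adjusted p = 0.0621), quantile normalization (0.33, adjusted p = 0.244) and the authors' deposited values (0.36, adjusted p = 0.189 by limma). Of the 24 fits with an array left out, it was lost without fish 3 of the second inner group (0.66, limma adjusted p = 0.0741). The cyclin_G1 rise in the inner harbour was called under 5 of the 7 scalings and was not called with the 75th percentile of detected probes (0.58, adjusted p = 0.0918) or with spike-ins (0.81, adjusted p = 0.119, limma). The PCD8 site difference at the first sampling was called on all 4 probes as reported and with normexp, on 1 with quantile normalization and on none of the 4 with the other 4 scalings. Of all tested probes 14.5%, 6.09% and 8.61% were called with the first 3 of these, and 3.99% to 7.77% with the other 4. The fall of PCD8 in the outer harbour was called on at least 1 of the 4 probes under each of the 7 scalings. The share of all tested probes there was 11.8% to 25.6%. On the brightest probe the fall was not called with the array median or the deposited values (limma adjusted p = 0.138 and 0.117). Under quantile normalization and with the deposited values, the brightest probe showed a site difference of -0.051 and -0.13 at the second sampling, and its difference between samplings in the inner harbour was -0.0075 and 0.0097. Over the array, for site at the first sampling 25 probes were called higher and 44 lower in inner fish, against 32 and 5 with the 75th percentile of detected probes. At the second sampling 61 were higher and 0 lower, against 11 and 14 under quantile normalization. For sampling 85 rose and 36 fell in the inner harbour, against 37 and 56 with detected probes, and 15 rose and 64 fell in the outer harbour, against 41 and 33 with the array median.

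**Figure D4:**
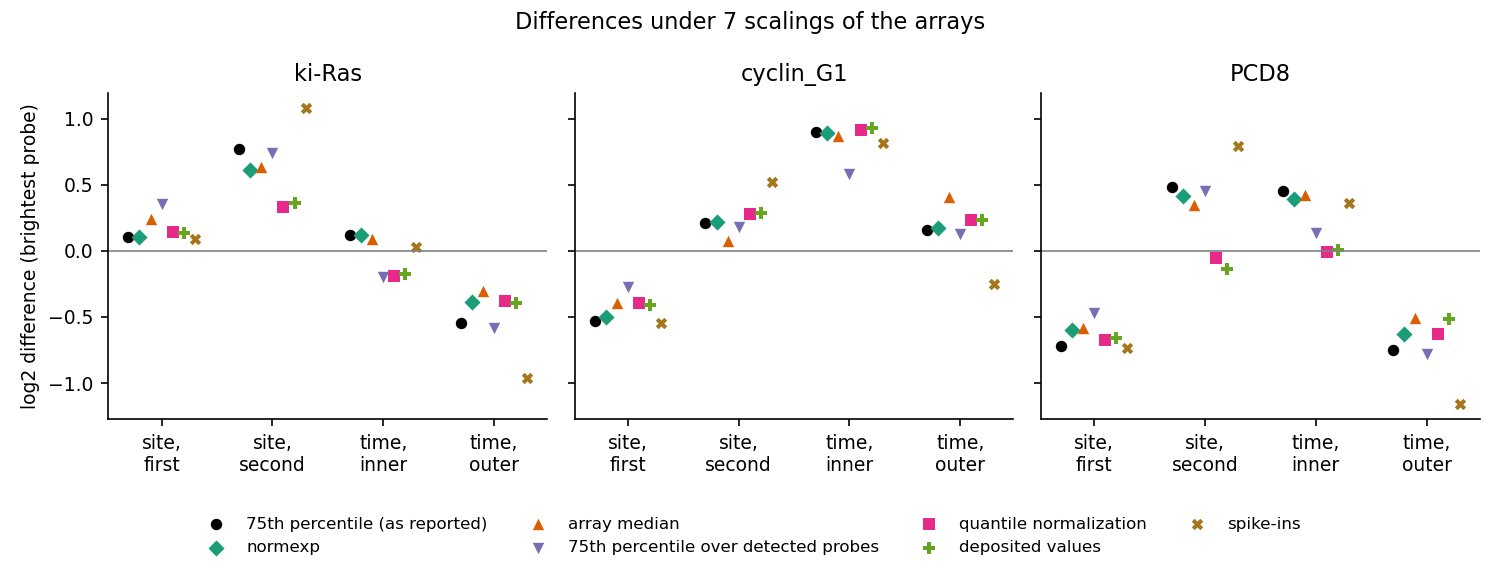
Differences of each gene's brightest probe (log2 scale) under 7 scalings of the arrays, for site (inner minus outer) and sampling (second minus first). All scalings place the cyclin_G1 rise in the inner harbour above 0.5 and the PCD8 site difference at the first sampling below -0.4, while the PCD8 site difference at the second sampling crosses 0.

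The other genes of the cell cycle, cell death, Ras and kinase signalling and DNA repair that are reported here numbered 9 on the array, and 7 could be tested. They were Cyclin_H, Gadd45a (growth arrest after DNA damage), PCNA (the sliding clamp of DNA replication), p53, Caspase_3 (an executioner protease of apoptosis), TNF? (spelled so, with its question mark) and c-Jun (a transcription factor below kinase signalling). BAX and BCL2, which promote and restrain apoptosis at the mitochondrion, were too dim on the arrays to be tested. In each of the 5 comparisons 0 of the 7 were called by limma. On their brightest probes 13.3% and 11.7% of the 128 genes were called for site at the first and second sampling, 25.0% and 15.6% for sampling in the inner and outer harbour, and 10.9% for the change of the site difference. At an unadjusted limma p under 0.05, 1 of the 7 (c-Jun) passed for site at the first sampling and 0 in the other comparisons. Counted over probes and not over genes, 127 of the 476 passed for site at the first sampling, and 96 to 182 across the comparisons. Between sites at the first sampling the 7 genes had a median difference of -0.23, against -0.07 over the 128 genes, and at the second sampling -0.06 against 0.10. For sampling their median was 0.19 in the inner and -0.04 in the outer harbour, against 0.15 and -0.04 over the genes.

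c-Jun had the most negative site difference of the 7 at the first sampling, -0.66 ± 0.30 (limma adjusted p = 0.160), and its 4 probes ran from -0.68 to -0.62. p53, whose product drives cyclin G1 in mammals, was at -5.06, -4.82, -4.76 and -4.66 in the means of the first inner and outer and the second inner and outer groups. Its difference between samplings in the inner harbour was 0.29 ± 0.31 (limma adjusted p = 0.555), beside 0.90 for cyclin_G1. Gadd45a differed there by -0.01 ± 0.39 (adjusted p = 0.991). Caspase_3 was well above background on 12 of the 24 arrays, and had -0.44 ± 0.25 in the inner and -0.41 ± 0.25 in the outer harbour (adjusted p = 0.212 and 0.290). PCNA had a change of the site difference of 0.61 ± 0.37 (limma adjusted p = 0.318).

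**Figure D5:**
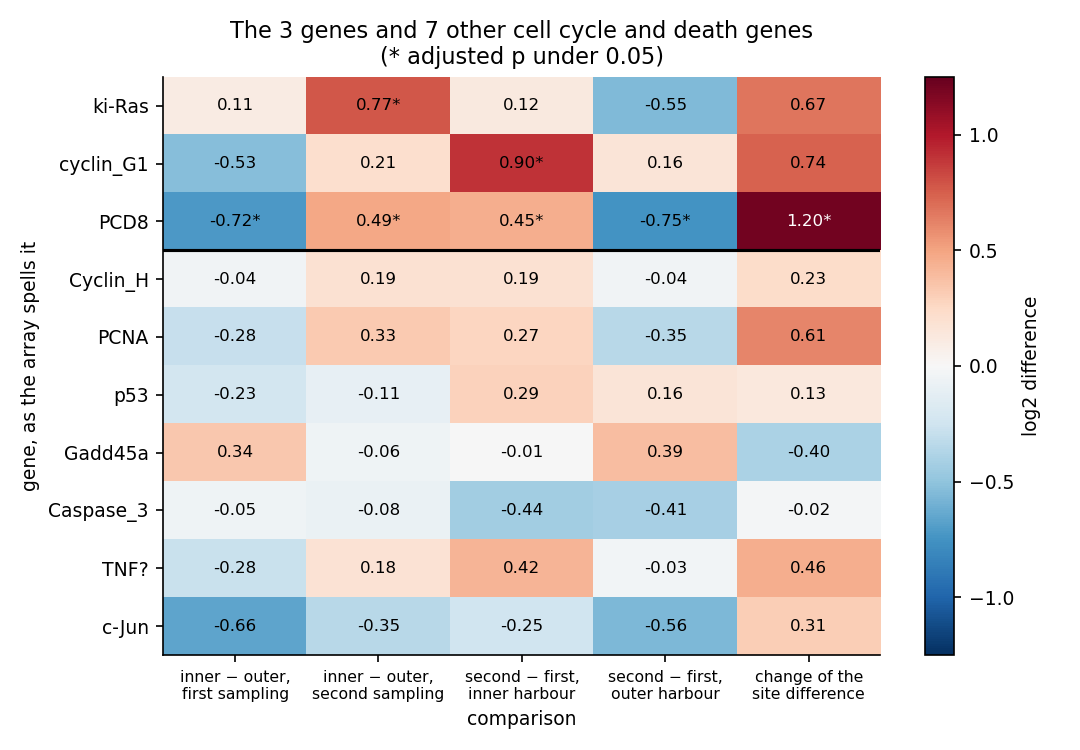
Log2 differences of ki-Ras, cyclin_G1 and PCD8 (above the line) and of 7 other cell cycle, death and signalling genes in the 5 comparisons, each on its brightest probe. An asterisk marks an adjusted p under 0.05, and the 7 other genes carry none.

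Markers of other cells moved with some of these groups. The 2 white blood cell genes on the array, MHC_II and an immunoglobulin, had an averaged level from -8.80 to -5.63 in the first inner group. They ran from -5.51 to -3.11 in the first outer group. At the second sampling they ran from -7.92 to -3.18 in the inner and from -7.75 to -3.67 in the outer harbour. Both genes were called lower in inner fish at the first sampling (log2 differences -5.55 and -1.29, limma adjusted p under 0.05). Neither was called in the other comparisons. In the first inner group 1 of them was well above background on only 1 of 6 arrays, the other on all 6. The mean of cyclin_G1 was lowest in that group, while PCD8 was low both there and in the second outer group (-3.15 and -3.18). Trypsin, made by the exocrine pancreas that lies within the liver of many fish, had medians of -2.70 and -2.36 at the first sampling (inner, outer) and of -0.08 and 1.66 at the second. Its fish ranged up to 4.78 and it was not called in the 5 comparisons. Red blood cell markers were not on the array. Hepatocyte markers moved too. Of the 8, 2 were lower in inner fish at the first sampling, a-2_macroglobulin (-0.98, limma adjusted p = 0.00106) and Transferrin, the iron carrier of plasma (-0.94, adjusted p = 0.0249). Both rose in the inner harbour between samplings, by 1.07 and 0.78 (limma adjusted p = 6.10e-05 and 0.0298), and the site difference of Transferrin changed by 1.28 (adjusted p = 0.0264). ApoE, a lipid carrier, fell between samplings in the inner (-3.41) and in the outer harbour (-4.28; limma adjusted p = 2.49e-07 and 1.48e-08) and was higher in inner fish at the second sampling (1.28, adjusted p = 0.0301). The other 5 were not called in the 5 comparisons on their brightest probes. For sampling in the inner harbour 2 of the 4 C3 probes were called, and the 4 ran from -0.74 to 0.23, with the brightest at 0.23. The part of these cells and markers in the differences of the 3 genes was not tested.

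The pattern over the 24 arrays was compared with that of the other 127 tested genes by the root mean square difference, after each probe's own mean was taken off. The genes most like ki-Ras were PolyU (0.34), IGFI, the insulin-like growth factor (0.34), and Mugil_cephalus_Cox3, a respiratory chain gene (0.35), while the ki-Ras values themselves had a root mean square of 0.45. Closest to cyclin_G1 (0.44) were Peroxiredoxine, a peroxide-reducing enzyme (0.38), a-2_macroglobulin, a plasma protease inhibitor (0.40), and Beta-actin of the cytoskeleton (0.41). Closest to PCD8 (0.39) were solute_carrier_family31_1, by name a copper transporter (0.36), Prothrombin of blood clotting (0.36) and Fo (0.36). None of the 3 genes was among the 3 closest to another of them. In these orders of 127 genes PCD8 was number 34 for ki-Ras and number 30 for cyclin_G1, and cyclin_G1 was number 81 for ki-Ras. A measure of this kind favours genes that vary little, and the arrays share groups and scaling.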

How the data were processed

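Liver RNA of 24 samples was copied from an oligo-dT primer, labelled with Cy3 and hybridised to custom Agilent arrays, 1 sample per array, per the labels' protocols. The spot intensity values deposited by the authors are, per the file headers, background-subtracted and detrended signals of Agilent Feature Extraction (version 9.5.3.1). The authors' deposited table of log2 values correlated with each array's own log2 signal (r of at least 0.992). How it was normalized and whether it was centred is not given in the sources used here. Its values entered as an alternative. No column of per-sample values was left without a sample.

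Flagged spots were left out, the remaining spots of a probe averaged on the log2 scale, and the array's 75th percentile subtracted. Probes well above background (at least 50% of spots) on at least 6 arrays were tested: 476 of 638. The 24 arrays entered a single limma fit (limma 3.58.1, R 4.3.3) with the 4 groups as coefficients, tested two-sided with Benjamini-Hochberg adjustment over all tested probes. It was tested on simulated data first. The genes and gene lists were chosen with earlier results of these data known. Named are the 3 genes, represented by the brightest probe, the members of the lists, and for each gene the 3 genes most like it. A name that met the Ras letters by chance was left out of the lists, and 1 further gene is not reported here. Probes were not matched to the genome, and no coordinates are given. Replicate numbers were checked for pairing: the deviations of same-numbered arrays of different groups correlated with a median r of 0.016 over 29 pairs, against 0.022 over 187 pairs of different numbers, so they were not used as pairs. The alternatives were other scalings and background correction, filters, only the compared groups, slide or replicate number as a block, the mean of a gene's probes, and each array left out in turn.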

Additional observations from a re-analysis of the deposited data

Results flagged for a closer look

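One fish stood far from its group. The cyclin_G1 level of fish 2 of the outer harbour at the second sampling was -0.44, and the nearest of the other 5 fish was at 0.24. The gap made up 0.634 of the group's range, against a critical value of 0.625 for 6 samples. By chance about 1 group in 20 would be flagged, and 12 groups were looked at, so a single flag among them is not rare. The site difference of PCD8 differed between the samplings: its change was 1.20 on the log2 scale (limma adjusted p = 0.00162), from -0.72 at the first to 0.49 at the second. These values are of the brightest probe. On it the change was not called with the array median (0.93, limma adjusted p = 0.112), quantile normalization (0.62, adjusted p = 0.204) or the deposited values (0.53, adjusted p = 0.354). Under the last 2 the second difference of that probe was -0.051 and -0.13. Of the 4 PCD8 probes, 3 were called for the change with the array median and none with the last 2. Of all tested probes 6.30%, 2.94% and 2.73% were called with these 3 scalings.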

How the results depend on the processing

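Of the 12 probes, 4, 8, 8, 4 and 4 were called for site at the first and second sampling, sampling in the inner and outer harbour, and the change of the site difference. Of all 476 probes 14.5%, 12.8%, 25.4%, 16.6% and 12.2% were called there. With the array median the counts were 0 and 0 for site, 4 and 1 for sampling (7.35%, 8.40%, 23.1% and 15.5% of all probes). With the 75th percentile of detected probes 0 were called for site at the first sampling, 0 for sampling in the inner and 8 in the outer harbour (7.77%, 19.5% and 18.3%). Quantile normalization gave 1 and 0 for site, 4 for sampling in the inner harbour and 0 for the change (8.61%, 5.25%, 24.4% and 2.94%), and the deposited values 0, 0, 4 and 0 in the same comparisons (7.56%, 3.78%, 23.9% and 2.73%). Spike-ins gave 0 for site at the first sampling, 0 and 8 for sampling and 8 for the change (3.99%, 16.6%, 25.6% and 11.8%), and normexp 3 for site at the second sampling (9.03%). Fitting only the compared groups left 1 for site at the first sampling (2.94%), and the replicate block left 2 (3.78%). Same numbers did not pair arrays (4 of 23 correlated best with their own number), and under the replicate block the cyclin_G1 difference between samplings in the outer harbour was -0.020. With that block ki-Ras and PCD8 between sites at the second sampling (0.84 and 0.37, limma adjusted p = 0.0553 and 0.312) and PCD8 between samplings in the inner harbour (0.41, adjusted p = 0.121) were not called on their brightest probes. The cause of these changes was not tested. With each array left out, the counts ran from 4 to 8 for site at the first and at the second sampling, from 7 to 8 and from 4 to 7 for sampling, and from 4 to 8 for the change. The share of all tested probes called in those fits is not given. Whether these counts moved with the whole array can therefore not be read from them. Signs turned for ki-Ras between sites at the first sampling (-0.038 without fish 7 and -0.0058 without fish 4 of the inner and outer group, up to 0.25 with another array left out) and between samplings in the inner harbour (-0.20 with detected probes, -0.19 with quantile normalization, -0.17 with deposited values). They also turned for the brightest PCD8 probe between sites at the second sampling (-0.051 with quantile normalization, -0.13 with deposited values), for the same probe between samplings in the inner harbour (-0.0075 with quantile normalization) and for cyclin_G1 between samplings in the outer harbour (-0.25 with spike-ins). Of the other tested values of single genes under an alternative, 460 kept direction and call, 58 lost the call and 9 gained it. Within a slide no test was run, and of 45 values of the brightest probes there 15 moved by more than 1 SD and 4 turned sign. The brightest PCD8 probe kept its call between sites at the second sampling in 6 of 24 fits with an array left out (adjusted p up to 0.145), while the other 3 PCD8 probes kept theirs in all 24.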
